A study of Mus musculus with 12 samples.

Results

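The 10 genes *Il2*, *Il3*, *Il6*, *Il10*, *Il16*, *Il21*, *Lif*, *Osm*, *Mif* and *Tgfb1* encode cytokines outside the type 2 set, and were chosen by name as cytokines that lung group 2 innate lymphoid cells (ILC2s) may make. All 10 have a value in each of the 12 RNA-seq libraries, among 24346 genes. The libraries were made from ILC2s sorted from mouse lungs, 3 in each of 4 groups. Wild-type (WT) C57BL/6 mice and *Sema6d*-/- mice of the same strain, which the labels call 6DKO (the methods name C57BL/6J), were given either the vehicle PBS or IL-33 into the nose for 3 days. Mice were 7 to 12 weeks old, and the labels state a dose of 50 ng IL-33, below that in the methods. The methods give the sorted cells as Lin- and positive for CD45, ST2 and Thy1.2, and add CD25, the α chain of the IL-2 receptor, where they describe the lung gate. *Sema6d* was deleted in the whole animal, so the cells around the ILC2s carried the deletion as well. Whether 1 library came from 1 mouse or from pooled mice is not stated, and p-values therefore measure the spread between these libraries. Values are FPKM, which are scaled for transcript length and library size and can be compared between genes.

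ILC2s are tissue-resident lymphocytes that react to epithelial alarmins such as IL-33 and are best known for IL-5 and IL-13. IL-2 and IL-21 signal through the common γ chain, IL-6, LIF and oncostatin M through gp130, and IL-3 through the β chain it shares with IL-5 and GM-CSF. IL-10 and TGF-β1 restrain immune responses, TGF-β1 being secreted in a latent form, whereas MIF and IL-16 are released without a classical signal peptide and bind CD74 and CD4.

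*Sema6d*, the targeted gene, had 27.5, 46.1 and 37.5 FPKM in WT PBS libraries, against 29.0, 22.9 and 19.8 FPKM in *Sema6d*-/- PBS libraries. For IL-33 the values were 19.7, 35.5 and 28.7 FPKM (WT) and 15.4, 13.6 and 13.8 FPKM (*Sema6d*-/-). Genotypes overlapped under PBS and not under IL-33, and neither contrast passed the limma test (adjusted p = 0.459 under PBS and 1 under IL-33). The gene was thus still measured in every library of mice labelled 6DKO, and a value per gene does not show which exons the reads came from, so the groups rest on the labels. All 12 ILC2 markers exceeded 1 FPKM in every library, with *Id2* the most abundant. *Gata3* was between 295 and 689.97 FPKM.

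Markers of other cells were low with exceptions. Of 10 T cell markers, *Cd3g* was the most abundant (189.7 to 479.8 FPKM) and *Lck* the next (37.9 to 205 FPKM), whereas *Cd4* was listed at 0 throughout and *Cd8a*, *Cd8b1*, *Cd5* and *Foxp3* did not exceed 0.393 FPKM. Among 7 measured neutrophil markers *S100a8*, *S100a9* and *Elane* were listed at 0 in every library, as were *Epx* and *Prg2* among 6 eosinophil markers, *Ms4a1* and *Pax5* among 6 B cell markers, and *Mcpt8*, *Mcpt4* and *Prss34* among 9 mast cell and basophil markers. *Cpa3* led that last list at 17.8 to 89.3 FPKM, and *Hdc* was at 134 FPKM in WT PBS replicate 3 and at most 5.01 FPKM elsewhere. The 18 macrophage and monocyte markers were led by *Ccr2*, which was at least 85.3 FPKM in all libraries. Without *Ccr2* these markers summed to 7.79, 1.20 and 25.6 FPKM in WT PBS and 5.84, 241 and 10.9 FPKM in *Sema6d*-/- PBS libraries. The sums were 6.73, 10.3 and 0.815 FPKM in WT IL-33 and 16.3, 437 and 153 FPKM in *Sema6d*-/- IL-33 libraries. In *Sema6d*-/- PBS replicate 2, *Lyz2* made up 112 FPKM, *Chil3* 51.1 FPKM and *Ear2* 39.7 FPKM of the sum, and 10 of the 18 markers exceeded 1 FPKM. *Fcgr3*, *C1qc*, *Fcgr1* and *Itgax* (CD11c) were among these, at 2.83 to 9.56 FPKM, whereas *Adgre1* and *Csf1r* were listed at 0 there. In *Sema6d*-/- IL-33 replicates 2 and 3, *Chil3* made up 394 and 83.1 FPKM and *Lyz2* 22.2 and 57.9 FPKM, and 8 of the 18 markers exceeded 1 FPKM in each. *C1qb*, *Cd14*, *Cd68* and *Ear2* were among these in both, at 1.83 to 7.63 FPKM, whereas *Adgre1* (F4/80), *Csf1r*, *Mrc1*, *Marco*, *Fcgr1* and *Fcgr3* were listed at 0 in both. The lineage antibodies of the sort included F4/80 and CD11c. Without their most abundant gene, epithelial markers reached 52.5 FPKM in *Sema6d*-/- PBS replicate 2 and 99.97 FPKM in *Sema6d*-/- IL-33 replicate 3, of which *Sftpc* was 97.2 FPKM. Endothelial markers summed to at most 21.5 FPKM and mesenchymal markers to at most 4.51 FPKM on the same count. Averaged over the genotypes, limma called *Klrg1*, *Il17rb*, *Lck*, *Cd68* and *Cd79b* higher under IL-33, and *Il2ra*, *Icos*, *Ccr2*, *Cpa3* and *Epcam* lower. No neutrophil, eosinophil, mesenchymal or endothelial marker was called in that contrast, where 5.82% of all genes tested were called higher and 3.09% lower. Without the 2 libraries highest in macrophage markers, a choice made after the data were seen, the averaged contrast called 4 of the 10 cytokine genes, as it did with them. Of all genes tested it then called 582 higher and 293 lower, against 666 and 354 with them. *Il10* was called in neither fit. The part of other cells in the cytokine values was not tested. In such bulk RNA, fewer cells making a cytokine and less RNA per cell cannot be told apart.

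PBS libraries differed more among themselves than IL-33 libraries. The median SD of log2(FPKM + 1) over the 11443 genes tested was 0.65 in WT PBS and 0.70 in *Sema6d*-/- PBS, against 0.29 and 0.28 in the IL-33 groups. Among 3617 genes with a mean from 5 to 20 FPKM, a PBS library listed 169 to 641 at 0 and an IL-33 library 25 to 50. For this reason a 0 is described as listed at 0.

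Of the 10 cytokine genes, 3 were lower and 1 was higher under IL-33 than under PBS when the genotypes were averaged, at an adjusted p under 0.05 from limma on log2(FPKM + 1). *Il2*, *Lif* and *Il3* were lower, where 3.09% of all genes tested were called lower, and *Il6* was higher, where 5.82% were called higher. *Il2* and *Lif* were also called lower within WT (1.61% of all genes) and within *Sema6d*-/- cells (1.12% of all genes). No cytokine was called higher within either genotype (2.72% of all genes in WT and 1.78% in *Sema6d*-/-). At an unadjusted p under 0.05 in either direction, limma gave 4 of the 10 in WT (17.7% of all genes) and 6 in *Sema6d*-/- cells (15.3% of all genes). Because 1 FPKM is added, log2 differences come out too small where levels are low. The median over the 10 genes was 0.43, against 0.16 over all genes tested, while the genes called lower outnumbered the gene called higher.

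**Figure D1:**
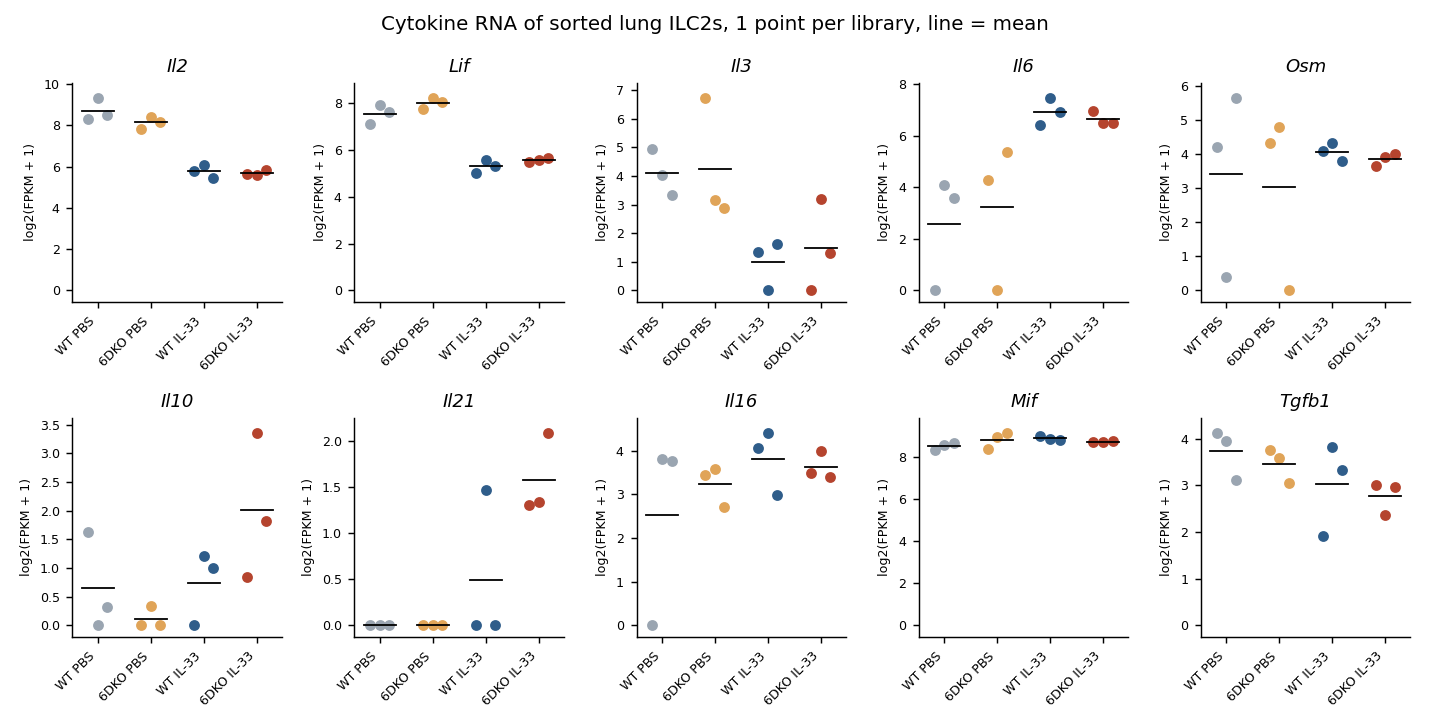
Level of each of the 10 cytokine genes as log2(FPKM + 1), 1 point per library and a line at the mean of the 3 libraries of a group, for WT and *Sema6d*-/- (6DKO) mice given PBS or IL-33. *Il2* and *Lif* sat lower in all 6 IL-33 libraries than in any of the 6 PBS libraries, and *Il6* sat higher.

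*Il2* encodes the T cell growth factor that also feeds ILC2s, and it was the most abundant member beside *Mif* under PBS. WT PBS libraries held 318, 633 and 354 FPKM of *Il2*, compared with 228, 338 and 285 FPKM for *Sema6d*-/- PBS. The IL-33 values were 53.9, 66.5 and 42.6 FPKM (WT) and 49.0, 47.7 and 56.2 FPKM (*Sema6d*-/-). The 6 PBS libraries all lay above the 6 IL-33 libraries, without overlap in either genotype. Group means were 435 ± 173 and 54.3 ± 11.999 FPKM in WT (SD, n = 3), 8.01-fold lower under IL-33, and 284 ± 55.2 and 51.0 ± 4.59 FPKM in *Sema6d*-/- cells (SD, n = 3), 5.57-fold lower. On the log2(FPKM + 1) scale *Il2* fell by 2.93 in WT (SE 0.27, limma adjusted p = 0.000177) and fell by 2.44 in *Sema6d*-/- cells (SE 0.27, limma adjusted p = 0.000834). The difference between these responses was 0.49 (95% CI −0.34 to 1.33, limma adjusted p = 0.894), with a range of 0.19 to 0.68 over the alternatives, the lowest without WT PBS replicate 2. An exact permutation of treatment within genotype gave p = 0.005, the smallest that the 400 assignments allow.

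*Il21*, which encodes a cytokine made mainly by follicular helper T cells and lies near *Il2*, was close to the detection limit. No PBS library had a value above 0 for it, and PBS libraries were mostly shallower and listed more genes at 0 than IL-33 libraries. The IL-33 libraries had 0, 1.77 and 0 FPKM (WT) and 1.48, 1.53 and 3.25 FPKM (*Sema6d*-/-). It was thus above 0 in 4 of 6 IL-33 libraries, including every *Sema6d*-/- one, and WT replicate 2 was above 2 of those 3. No fold is given against groups at 0. The averaged contrast did not pass (limma adjusted p = 0.0588), with a range of 0.0397 to 0.221 over the alternatives, nor did the genotypes under IL-33 (limma adjusted p = 1). It passed averaged with a pseudocount of 0.1 (limma adjusted p = 0.0397) or no filter (limma adjusted p = 0.0402).

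*Lif* encodes leukemia inhibitory factor, an IL-6 family cytokine that binds LIFR and gp130. PBS libraries of WT mice held 136, 241 and 194 FPKM, those of *Sema6d*-/- mice 213, 296 and 265 FPKM. With IL-33, *Lif* stood at 31.8, 46.1 and 39.4 FPKM (WT) and 43.3, 46.6 and 49.3 FPKM (*Sema6d*-/-). As with *Il2*, all PBS libraries were above all IL-33 libraries, a separation that 2.32% of all genes showed in this direction. The means were 190.3 ± 52.6 and 39.1 ± 7.18 FPKM in WT (SD, n = 3), 4.87-fold lower under IL-33, and 258 ± 42.0 and 46.4 ± 2.99 FPKM in *Sema6d*-/- cells (SD, n = 3), 5.55-fold lower. *Lif* fell by 2.23 on the log2 scale in WT (SE 0.24, limma adjusted p = 0.000434) and fell by 2.44 in *Sema6d*-/- cells (SE 0.24, limma adjusted p = 0.000393). The responses differed by −0.21 (95% CI −0.94 to 0.53, limma adjusted p = 0.936), with a range of −0.39 to 0.02 over the alternatives and a change of sign in 1 of 21, without WT PBS replicate 1. The exact permutation p within genotype was 0.005, again the smallest possible.

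*Il6*, the founding member of the same family and a cytokine of acute inflammation, moved the opposite way. Its PBS values were 0, 16.1 and 11.1 FPKM (WT) and 18.7, 0 and 40.1 FPKM (*Sema6d*-/-). After IL-33, WT libraries held 83.8, 175 and 122 FPKM of *Il6* and *Sema6d*-/- libraries 124, 89.1 and 90.0 FPKM. All 6 IL-33 libraries were above all 6 PBS libraries, as for 4.11% of all genes in this direction, and the zeros fell in WT PBS replicate 1 and *Sema6d*-/- PBS replicate 2. The averaged log2 difference was 3.90 (SE 0.89, limma adjusted p = 0.0183; exact permutation p = 0.005). Within WT it was 4.37 (SE 1.26, limma adjusted p = 0.0806) and within *Sema6d*-/- cells 3.44 (SE 1.26, limma adjusted p = 0.210), neither past the threshold. Without *Sema6d*-/- PBS replicate 2, a library at 0, the latter was 1.83, and it lay between 1.83 and 4.56 over the alternatives. The averaged call was lost without WT IL-33 replicate 2, without *Sema6d*-/- IL-33 replicate 1 and with a pseudocount of 0.1 (limma adjusted p from 0.0513 to 0.0666), and the range over all alternatives was 0.00508 to 0.0666.

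*Osm* encodes oncostatin M, a gp130 cytokine that acts on stromal and epithelial cells, and its PBS replicates were far apart. PBS values of *Osm* were 17.5, 0.324 and 49.3 FPKM (WT) and 19.3, 27.1 and 0 FPKM (*Sema6d*-/-). Those with IL-33 were 16.0, 19.0 and 12.9 FPKM (WT) and 11.6, 14.1 and 15.0 FPKM (*Sema6d*-/-). PBS libraries thus lay on both sides of the narrow IL-33 range. These values are whole multiples of the worth of 1 read, within 0.05 of a read, if the smallest stands for 4 reads. On that reading WT PBS libraries held 180, 4 and 608 reads and *Sema6d*-/- PBS libraries 226, 324 and 0 reads. The 6 IL-33 libraries held 179 to 310 reads. Relative depth differed by 1.88-fold over the 12 libraries. It was 0.739 to 0.998 in PBS libraries and 0.968 to 1.39 in IL-33 libraries, with WT IL-33 replicate 3 set to 1. The averaged log2 difference between treatments was 0.73 (95% CI −1.33 to 2.78, limma adjusted p = 0.6997), whereas the mean over 6 libraries was lower under IL-33 (14.8 FPKM) than under PBS (18.9 FPKM). Its sign turned in 2 of 21 alternatives, without WT PBS replicate 2 or *Sema6d*-/- PBS replicate 3, with a range of −0.04 to 1.501.

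*Il3* encodes a growth factor of mast cells and basophils. The PBS libraries held 29.7, 15.4 and 9.03 FPKM (WT) and 104, 7.99 and 6.30 FPKM (*Sema6d*-/-). The IL-33 libraries held 1.51, 0 and 2.097 FPKM (WT) and 0, 8.08 and 1.44 FPKM (*Sema6d*-/-). In WT the treatments were separate (exact permutation p = 0.10, the smallest possible), and in *Sema6d*-/- cells IL-33 replicate 2 lay above 2 of the 3 PBS libraries. The values are whole multiples of 1 read if the smallest stands for 8 reads, which gives 115, 72 and 42 reads in WT PBS and 459, 36 and 33 reads in *Sema6d*-/- PBS libraries. The IL-33 libraries then held 11, 0 and 11 reads in WT and 0, 41 and 8 reads in *Sema6d*-/- mice. *Il3* fell by 2.94 on the log2 scale over both genotypes (SE 0.75, limma adjusted p = 0.0312; exact permutation p = 0.015). The limma adjusted p was between 0.0233 and 0.101 over the alternatives and above 0.05 in 10 of 21. Those 10 were no filter, array weights, the replicate block, and leaving out WT PBS replicate 1 or 2, any WT IL-33 replicate, or *Sema6d*-/- IL-33 replicate 1 or 3, with adjusted p from 0.0520 to 0.101.

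*Il10* encodes a suppressive cytokine and was detected at low level. PBS libraries had 2.11, 0 and 0.251 FPKM (WT) and 0, 0.259 and 0 FPKM (*Sema6d*-/-), and IL-33 libraries 0, 1.32 and 1.002 FPKM (WT) and 0.796, 9.20 and 2.53 FPKM (*Sema6d*-/-). With the smallest value taken as 2 reads, these are 14, 0 and 2 reads (WT PBS), 0, 2 and 0 reads (*Sema6d*-/- PBS), 0, 13 and 9 reads (WT IL-33), and 8, 80 and 24 reads (*Sema6d*-/- IL-33). The 3 *Sema6d*-/- IL-33 libraries were above all 3 *Sema6d*-/- PBS libraries, but *Sema6d*-/- IL-33 replicate 1 was below 2 of the 3 WT IL-33 libraries. The libraries with 80 and 24 reads also had 437 and 153 FPKM of macrophage and monocyte markers other than *Ccr2*, mostly *Chil3* (394 and 83.1 FPKM). *Sema6d*-/- PBS replicate 2 had 241 FPKM of these markers, with *Chil3* at 51.1 FPKM, and 2 *Il10* reads. WT PBS replicate 1 had 7.79 FPKM with 14 reads. Whether other cells contributed to the *Il10* values was not tested. Within *Sema6d*-/- cells the log2 difference between treatments was 1.89 (SE 0.65, limma adjusted p = 0.175; exact permutation p = 0.10, the smallest possible with 3 against 3). Without *Sema6d*-/- IL-33 replicate 2, the library with 80 *Il10* reads, it was 1.22 (limma adjusted p = 0.487), and over all alternatives it lay between 1.22 and 4.19 (adjusted p from 0.116 to 0.487).

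*Mif* encodes macrophage migration inhibitory factor, a cytokine stored in most cells, and was high in all libraries. *Mif* levels with PBS were 318, 379 and 398 FPKM (WT) and 329, 494 and 554 FPKM (*Sema6d*-/-). *Mif* levels with IL-33 were 505, 454 and 442 FPKM (WT) and 417, 412 and 435 FPKM (*Sema6d*-/-). WT IL-33 libraries lay above WT PBS libraries and above *Sema6d*-/- IL-33 libraries without overlap, whereas the *Sema6d*-/- PBS range took in every IL-33 library. Each of these separations had an exact permutation p of 0.10, the smallest possible. The log2 difference between treatments was 0.36 in WT (95% CI −0.03 to 0.75, limma adjusted p = 0.337) and −0.09 in *Sema6d*-/- cells (95% CI −0.48 to 0.30, limma adjusted p = 0.865; 0.06 without *Sema6d*-/- PBS replicate 3), and their difference was −0.45 (limma adjusted p = 0.894; −0.67 to −0.30 over the alternatives).

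*Tgfb1* encodes TGF-β1 and *Il16* a chemoattractant of CD4+ cells. *Tgfb1* was between 7.27 and 16.3 FPKM in PBS libraries and between 2.79 and 13.0 FPKM in IL-33 libraries. The treatments overlapped in WT but not in *Sema6d*-/- cells, where PBS libraries were at 12.5, 11.006 and 7.27 FPKM and IL-33 libraries at 7.01, 4.15 and 6.74 FPKM. The log2 difference of *Tgfb1* was nearly the same in both, −0.71 in WT (limma adjusted p = 0.555) and −0.69 in *Sema6d*-/- cells (limma adjusted p = 0.591). For the latter the exact permutation p was 0.10, the smallest possible. Its averaged log2 difference was −0.70 (95% CI −1.52 to 0.13, limma adjusted p = 0.309), with a range of −0.90 to −0.42 over the alternatives, the latter without WT IL-33 replicate 1. *Il16* was listed at 0 in WT PBS replicate 1 and lay between 5.58 and 20.2 FPKM in the other 11 libraries, with overlap between all groups. Its averaged log2 difference was 0.83 (95% CI −0.51 to 2.18, limma adjusted p = 0.476). Without WT PBS replicate 1, the library at 0, it was 0.20 (limma adjusted p = 0.761), and within WT it went from 1.29 to 0.03. The averaged value lay between 0.20 and 1.38 over the alternatives (limma adjusted p from 0.293 to 0.761).

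The order of the levels differed between treatments. Under PBS *Il2* and *Mif* overlapped at the top, with *Lif* next and overlapping *Il2* in *Sema6d*-/- cells only. *Lif* was separate from the next gene, *Osm* in WT and *Il3* in *Sema6d*-/- cells. *Osm*, *Il3*, *Tgfb1*, *Il6* and *Il16* followed, each overlapping the next among them. *Il10* and *Il21* came last, and *Il16* was separate from *Il10* in *Sema6d*-/- cells only. Under IL-33 *Mif* was first and *Il6* the second, each separate from the next in both genotypes. *Il2* and *Lif* overlapped each other, and both were separate from *Osm*, the fifth. The summed FPKM of the 10 genes was 837 to 1312 in PBS libraries and 647 to 797 in IL-33 libraries. *Mif* made up 28.9% to 47.6% of that sum under PBS and 56.9% to 71.1% under IL-33. The share of *Il6* was at most 3.45% under PBS and at least 11.8% under IL-33.

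Between the genotypes, none of the 10 genes passed the limma test under IL-33 (0.00874% of all genes did), under PBS (0.594% of all genes) or in the interaction (0.0175% of all genes). At an unadjusted limma p under 0.05, the counts among the 10 were 1 under IL-33 (*Il21*, 1.85% of all genes), 0 under PBS (13% of all genes) and 0 in the interaction (5.6% of all genes). Under IL-33 only *Mif* did not overlap between the genotypes, where 14.2% of all genes did not, and under PBS each of the 10 overlapped (8.59% of all genes did not). The log2 differences under IL-33 furthest from 0 were those of *Il10* and *Il21*. *Il10* means were 4.17 FPKM in *Sema6d*-/- and 0.772 FPKM in WT libraries, with a log2 difference of 1.27 (95% CI −0.16 to 2.69, limma unadjusted p = 0.0764 and adjusted p = 1; exact permutation p = 0.3). It lay between 0.59 and 2.38 over the alternatives, none of which called it, the lowest without *Sema6d*-/- IL-33 replicate 2. *Il21* had a log2 difference of 1.09 (95% CI 0.14 to 2.04, limma unadjusted p = 0.0279 and adjusted p = 1; exact permutation p = 0.3). The other 8 genes lay between −0.28 and 0.50, and *Il2*, *Il3*, *Il16* and *Tgfb1* changed sign in 1 or 2 of 22 alternatives. The 95% CI under IL-33 was −0.66 to 0.52 for *Il2* and −0.27 to 0.78 for *Lif*. For *Il6* it was −3.04 to 2.48 and for *Osm* −3.11 to 2.69. These intervals use 1 spread shared by the 4 groups, in which PBS libraries varied more. The SD of log2(FPKM + 1) for *Il6* was 0.53 (WT) and 0.27 (*Sema6d*-/-) under IL-33, against 2.24 and 2.84 under PBS. For *Osm* it was 0.27 and 0.18 under IL-33, against 2.71 and 2.65 under PBS.

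Receptors for the 10 cytokines were read from a list of 19 chains, 18 of them above 0 in at least 1 library. Over both genotypes 3 chains were called higher under IL-33 (*Il3ra*, *Cd74*, *Cd44*) and 3 lower (*Il2ra*, *Il2rg*, *Il10ra*), and the median log2 difference was 0.01. Of all genes tested, 5.82% were called higher and 3.09% lower in this contrast. *Il2ra*, the α chain that gives the IL-2 receptor high affinity, had PBS levels of 96.2, 122 and 112 FPKM (WT) and 103, 100.4 and 132 FPKM (*Sema6d*-/-). Its IL-33 levels were 19.0, 27.7 and 25.6 FPKM (WT) and 47.5, 29.4 and 35.3 FPKM (*Sema6d*-/-). Ligand and receptor RNA were thus both highest under PBS, without overlap,. *Il2ra* fell by 2.16 on the log2 scale in WT (SE 0.25, limma adjusted p = 0.000680) and fell by 1.57 in *Sema6d*-/- cells (SE 0.25, limma adjusted p = 0.00639). The common γ chain *Il2rg* was the most abundant of the list at 2122 to 3201 FPKM and fell by 0.33 over both genotypes (SE 0.06, limma adjusted p = 0.00516).

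*Il10ra*, the ligand-binding chain for IL-10, was at 235, 134 and 171 FPKM in WT PBS and 251, 143 and 235 FPKM in *Sema6d*-/- PBS libraries. It was at 76.9, 72.6 and 103 FPKM in WT IL-33 and 69.5, 71.0 and 67.9 FPKM in *Sema6d*-/- IL-33 libraries, below every PBS library. It fell by 1.07 in WT (SE 0.26, limma adjusted p = 0.0423) and fell by 1.54 in *Sema6d*-/- cells (SE 0.26, limma adjusted p = 0.00959). *Cd74*, the MIF receptor and MHC class II invariant chain, had PBS levels of 8.34, 55.2 and 66.7 FPKM (WT) and 167, 23.1 and 103 FPKM (*Sema6d*-/-). Its IL-33 levels were 285, 337 and 608 FPKM (WT) and 936, 607 and 751 FPKM (*Sema6d*-/-). No library crossed between the treatments, and the log2 rise was 3.45 over both genotypes (SE 0.55, limma adjusted p = 0.00211). *Cd44*, its signalling partner, rose by 0.62 (SE 0.12, limma adjusted p = 0.00788). The IL-3 receptor α chain *Il3ra* was at most 2.79 FPKM under PBS and 5.25 to 17.2 FPKM under IL-33, a rise of 2.13 (SE 0.48, limma adjusted p = 0.0167).

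**Figure D2:**
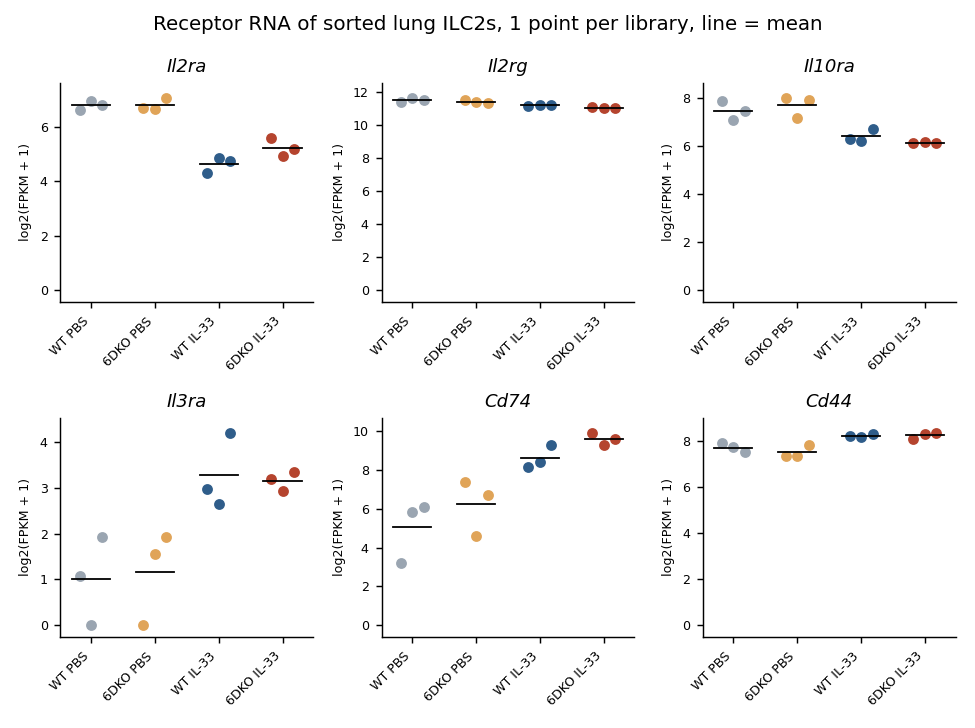
Level of the 6 receptor chains called between the treatments, as log2(FPKM + 1), 1 point per library and a line at the mean of the 3 libraries of a group, 6DKO standing for *Sema6d*-/-. *Il2ra*, *Il2rg* and *Il10ra* were lower in all 6 IL-33 libraries than in any PBS library, and *Cd74*, *Cd44* and *Il3ra* were higher.

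Further receptor chains were picked out after their values were seen. *Csf2rb* and *Csf2rb2*, the β chains needed for IL-3 signalling, did not exceed 0.776 FPKM in any library. *Lifr* was at most 0.192 FPKM, *Osmr* was listed at 0 in 11 of 12 libraries, and the IL-16 receptor *Cd4* was listed at 0 in all. *Il6st*, which encodes gp130, was between 0.0554 and 12.6 FPKM under PBS and at most 1.18 FPKM under IL-33, and its averaged contrast did not pass the threshold.

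Of 14 listed genes for the processing or latency of these cytokines, 13 of them above 0 in at least 1 library, *Furin*, the convertase of pro-TGF-β1, was the most abundant at 134 to 276 FPKM, followed by *Cops5*, a MIF-binding signalosome subunit, and *Nrp1*, a coreceptor of latent TGF-β1. Of 19 family relatives, *Ctf1*, *Il19*, *Il20*, *Il24* and *Il27* were listed at 0 in every library. Of the other 14, 1 was called higher (*Tgfb3*) and 2 lower (*Il5*, *Csf2*) over both genotypes, with a median log2 difference of 0.42. In this contrast 5.82% of all genes tested were called higher and 3.09% lower. *Tgfb3*, another TGF-β isoform, was listed at 0 in 5 of 6 PBS libraries, at 4.21 FPKM in WT PBS replicate 3, and at 2.79 to 10.3 FPKM under IL-33, a log2 rise of 2.16 (SE 0.47, limma adjusted p = 0.0151). On the list of 6 type 2 cytokine genes, which also holds *Il5* and *Csf2*, these and *Areg* were called lower and none higher, with a median of 0.44. *Il13*, *Il4* and *Il9* of this list rose by 2.22, 1.51 and 1.41 without passing (limma adjusted p = 0.0513, 0.0815 and 0.172). *Csf2*, which encodes GM-CSF, was at 2341 to 3466 FPKM under PBS and 1041 to 1416 FPKM under IL-33 and fell by 1.22 (SE 0.11, limma adjusted p = 5.42e-05).

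The genes most alike in pattern were taken for each of the 8 members with a mean of at least 5 FPKM, as the 3 of 7412 genes with the highest Pearson r of log2(FPKM + 1) over the 12 libraries, which is a description without a test. For *Il2* these were *Anks6* (r = 0.978), *Ccl1* (r = 0.975) and *Bambi* (r = 0.969). *Ccl1*, which encodes a chemokine for CCR8+ cells, was at 5467 to 8658 FPKM under PBS and 577 to 1011 FPKM under IL-33. For *Lif* they were *Tmem176a* (r = 0.973), *Gimap3* (r = 0.972) and *Man2a2* (r = 0.971). With group means removed, the r to *Il2* was 0.696, 0.488 and 0.418 for these genes in turn, and the r to *Lif* was 0.00644, −0.379 and 0.788. For *Il3* they were *Ptbp1* (r = 0.940), *Plat* (r = 0.927) and *Lgals8* (r = 0.926), all highest in the library where *Il3* was at 104 FPKM. For *Il6* they were *Slc25a24* (r = 0.939), *Gpaa1* (r = 0.934) and *Cd74* (r = 0.930). *Slc25a24* was listed at 0 in the same 2 PBS libraries as *Il6*, and *Gpaa1* was at 0.181 and 1.01 FPKM there. For *Osm* they were *Arl10* (r = 0.964), *Pkmyt1* (r = 0.956) and *1110012L19Rik* (r = 0.953). All of these were listed at 0 in WT PBS replicate 2 and *Sema6d*-/- PBS replicate 3, the libraries with 0.324 and 0 FPKM of *Osm*. For *Il16* they were *Elovl1*, *Ccdc92* and *Ap1s2*, lowest in WT PBS replicate 1 like *Il16* itself (r = 0.967, 0.946 and 0.942). *Mif* was most like *Acp1*, *Ccni* and *Gngt2* (r = 0.938, 0.911 and 0.904) and *Tgfb1* most like *Slc25a3*, *Huwe1* and *Fnbp4* (r = 0.883, 0.855 and 0.821).

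In the GENCODE vM21 annotation of GRCm38, *Il2* lies on chromosome 3 from 37120523 to 37125959 and *Il21* on the same chromosome and strand from 37222759 to 37232636, with 96.8 kb between them. *Lif* (4257557 to 4272514), *Osm* (4236420 to 4241026) and *Il3* (54265303 to 54267277) are all on chromosome 11. *Il6* is on chromosome 5 from 30013114 to 30019981, *Il10* on chromosome 1 from 131019845 to 131024974, *Il16* on chromosome 7 from 83642825 to 83745726, *Mif* on chromosome 10 from 75859353 to 75860240 and *Tgfb1* on chromosome 7 from 25687002 to 25705077. Exons of *Il16* share 1202 bases with *Stard5* and 166 with *2310044K18Rik*, both on the opposite strand, and those of *Il21* share 469 bases with the antisense gene *Gm12534*. Whether strand was used in counting is not stated, so *Il16* and *Il21* reads and those of their partners may not be separable. *Mif* has 2 annotated pseudogenes of the same name, so its value is uncertain if reads were shared with them.

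RefSeq promoter windows (GRCm38.p6, 250 bases before to 50 after the gene start) were matched for 8 of the 10 members, all but *Il10* and *Osm*. The bases before the start are shown for the 4 genes called between the treatments, *Il2* (chr3:37125955-37126204, minus strand), *Lif* (chr11:4257318-4257567, plus strand), *Il3* (chr11:54267280-54267529, minus strand) and *Il6* (chr5:30012864-30013113, plus strand), since 3 of these fell and 1 rose. Capitals mark matches, on either strand, to an AP-1 motif (TGANTCA, in 7.81% of 32851 RefSeq promoter windows), an NF-κB motif (GGANTTTCC, 1.25%), the NFAT core (GGAAAA, 23.4%), TATAAA (13.6%) or the CRE (TGACGTCA, 1.79%).
Il2: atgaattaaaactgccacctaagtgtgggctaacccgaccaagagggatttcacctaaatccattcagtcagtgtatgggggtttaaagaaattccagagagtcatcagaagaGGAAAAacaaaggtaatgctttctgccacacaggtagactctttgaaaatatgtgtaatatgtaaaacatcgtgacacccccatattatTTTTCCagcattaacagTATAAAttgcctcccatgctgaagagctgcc
Lif: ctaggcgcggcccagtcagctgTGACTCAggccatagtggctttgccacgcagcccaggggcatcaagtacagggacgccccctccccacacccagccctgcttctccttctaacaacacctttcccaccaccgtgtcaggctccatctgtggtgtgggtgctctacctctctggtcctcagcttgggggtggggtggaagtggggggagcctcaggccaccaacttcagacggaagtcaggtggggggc
Il3: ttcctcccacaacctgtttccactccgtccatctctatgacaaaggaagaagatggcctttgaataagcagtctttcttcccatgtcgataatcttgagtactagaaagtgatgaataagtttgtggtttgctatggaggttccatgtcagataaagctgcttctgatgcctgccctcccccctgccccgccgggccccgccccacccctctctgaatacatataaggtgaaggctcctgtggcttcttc
Il6: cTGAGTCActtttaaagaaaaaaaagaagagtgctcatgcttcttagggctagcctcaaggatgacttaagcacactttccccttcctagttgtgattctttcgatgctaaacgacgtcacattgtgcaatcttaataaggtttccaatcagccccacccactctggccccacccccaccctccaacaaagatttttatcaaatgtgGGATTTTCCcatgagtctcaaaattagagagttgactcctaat

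The *Il2* window held 2 NFAT core matches, 137 and 48 bases before the start, and TATAAA 31 bases before it. *Lif* held 1 AP-1 match 228 bases before the start. *Il6* held an AP-1 match at 249 bases and an NF-κB match at 43 bases, the latter overlapping an NFAT core match at 40 bases. *Il3* held none of the 5 motifs in this window. Of the other members, *Il21* held 2 NFAT core matches, *Mif* a CRE match 24 bases before the start, and *Tgfb1* none. Of the 3 *Il16* windows, 1 held an AP-1 and another an NF-κB match. A match is a string of letters in the reference and not evidence of binding in these cells.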

How the data were processed

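FPKM values were deposited by the authors for each gene and library, from single-end reads of 75 bases on mm10. The submitters' processing notes name TopHat2 2.1.1, Bowtie2 and Cuffdiff 2.2.1, while the methods name another TopHat version, and Cuffnorm in place of Cuffdiff. The kits also differ, SMART-Seq HT with Nextera in the labels and TruSeq Stranded in the methods. The annotation and strand setting are not stated. Groups were taken from the labels. No read totals accompany FPKM. Relative depth was taken from 1727 genes under 3 FPKM in every library and above 0 in at least 4, of which 45.4% gave whole multiples of their smallest value within 0.05. For members, the smallest value could stand for up to 12 reads, and 3 members gave whole reads. The fewest reads that gave whole multiples were used, and larger numbers may fit as well.

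From the deposited FPKM values, limma 3.58.1 (R 4.3.3; lmFit, eBayes with trend, 4 group means, 12 libraries, two-sided, Benjamini-Hochberg) was run on log2(FPKM + 1) over 11443 genes, those averaging 0.5 FPKM or more and those on a list with any value above 0. Exact permutation tests were two-sided. Python 3.11.15, numpy 2.4.6 and pandas 2.3.3 were used, and the fits and depth estimate were tested on simulated data. The members and gene lists were chosen with earlier results of these data known. Many genes named beside the members passed the test in some contrast, were the 3 most abundant of their list, or were the 3 most alike in pattern. Other named genes, among them markers of other cells and genes listed at 0, were picked for their values without such a rule. Alternatives were pseudocount, filter, normalization, trend, array weights, a replicate block, fits restricted to the compared groups, and leaving out libraries. The calls among the genes for processing and latency are not reported here.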

Additional observations from a re-analysis of the deposited data

How the results depend on the processing

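*Il2* and *Lif* kept their direction and their call between the treatments under every alternative run, in WT, in *Sema6d*-/- cells and averaged, and no called gene of the 10 changed sign. No genotype or interaction contrast called any of the 10 under any alternative. Averaged over the genotypes, 4 of the 10 were called, 3 with array weights and 3 with the replicate block, and 2 to 4 when 1 library was left out, with 2 without WT IL-33 replicate 2 or *Sema6d*-/- IL-33 replicate 1. In WT, *Il6* was called with array weights (adjusted p = 0.0330), without *Sema6d*-/- PBS replicate 2 (0.0213) and without the 2 libraries richest in macrophage markers (0.0423), an alternative chosen after the data were seen, with a range of 0.0213 to 0.236, and *Il3* without *Sema6d*-/- PBS replicate 1 (0.0478, range to 0.378). *Il21* was called in *Sema6d*-/- cells without WT IL-33 replicate 2 (0.0334, range to 0.350), and averaged with a pseudocount of 0.1 (0.0397) or no filter (0.0402), with a range to 0.221.

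Counts over all genes moved more. For *Sema6d*-/- cells 332 genes were called between the treatments, against 210 with array weights, 221 with the replicate block, 221 without those 2 libraries and 139 to 497 without 1 library, falling by over 1.5 times without any of its IL-33 replicates (149, 139 and 153). For WT 495 were called, and 210 to 691 without 1 library, with 210, 247 and 237 without WT IL-33 replicates 1, 2 and 3. Averaged, 1020 were called, and 673 to 1252 without 1 library, 673 being without WT IL-33 replicate 3. Between the genotypes under IL-33, 1 gene was called, against 2 with a pseudocount of 0.1, 0 with quantile normalization, 0 in a fit of only the groups compared, 57 with array weights, 3 without the 2 libraries and 0 to 3 without 1 library (0 without WT IL-33 replicate 2 or *Sema6d*-/- IL-33 replicate 1, 2 without WT PBS replicate 2, WT IL-33 replicate 3 or *Sema6d*-/- IL-33 replicate 3, and 3 without *Sema6d*-/- PBS replicate 1 or IL-33 replicate 2). Under PBS 68 were called, against 33 with no filter, 42 with quantile normalization, 1 with array weights, 15 with the replicate block, 1 in a fit of only the groups compared and 20 to 206 without 1 library, with 206 without WT PBS replicate 3, 146 to 163 without a *Sema6d*-/- PBS replicate and 20 to 31 without an IL-33 library of either genotype. In the interaction 2 were called, against 5 with a pseudocount of 0.1, 7 without trend, 1 with array weights, 1 with the replicate block and 0 to 28 without 1 library, with 7, 5 and 26 without WT PBS replicates 1 to 3, 28 and 8 without *Sema6d*-/- PBS replicates 1 and 3, 0, 0 and 1 without WT IL-33 replicates 1 to 3, and 0 and 4 without *Sema6d*-/- IL-33 replicates 1 and 2. The causes were not tested. Deviations from group means had correlations of −0.05 to 0.04 between same-numbered libraries and −0.07 to 0.05 between differently numbered ones. Whether same-numbered libraries share more than a number was not tested. Quantile normalization moved the median averaged log2 difference of all genes from 0.16 to 0.02. The shared spread weighs noisy PBS and quiet IL-33 libraries alike, and low genes such as *Il10* rest on few reads if its smallest value stands for 2 reads.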
